A study of Mus musculus with 2 samples.

Results

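The transcripts of major histocompatibility complex (MHC) class I, of its light chain and of the genes that load it were followed across the cells of a splenic natural killer (NK) cell preparation. The 9 genes were taken by symbol: B2m, H2-K1, H2-D1, H2-Q7, H2-T23, Tap1, Tap2, Tapbp and Nlrc5. They are 9 of the 32285 genes in the matrix, and all 9 passed edgeR's filter on low counts in every comparison.

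MHC class I is a heavy chain held on the cell surface with the light chain beta-2 microglobulin and a short peptide. Peptides cut by the proteasome enter the endoplasmic reticulum through the TAP transporter, and tapasin holds empty heavy chains beside it until a peptide binds. NK cells read these molecules through inhibitory receptors of the Ly49 and CD94/NKG2A families, and cells that lose class I become targets, so the same genes are ligands for NK cells and are carried by NK cells themselves. NLRC5 is a transactivator that works through factors bound to a conserved upstream module of class I genes, and interferon gamma is a known inducer of both.

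The cells came from spleens of wild-type mice, from which NK cells had been enriched by negative selection, a method that removes other lineages with antibodies. Of the 2 samples in the labels, 1 library was analysed, and the other was not analysed here; the labels do not say whether the matrix also holds its cells. Lipid tags had been used to combine cells of different mice, and the labels give neither strain, age, sex nor treatment, nor which tag stands for which mouse. Counts of H2-K1, H2-D1 and H2-Q7 may depend on the H-2 haplotype, which is not given either. The 3 tags were used as replicates, and classes were compared within tags. P-values therefore measure only how class differences vary between tags, with that spread pooled over all classes in a fit. It may be technical. All groups are wild-type cells of the same library, told apart by their transcripts. They are ILC1-like, T cell-like, B cell-like, conventional dendritic cell-like (below, dendritic-like), erythroid-like, stromal-like and progenitor-like cells, each set against NK-like cells. Within NK-like cells, those with only Cd27 transcripts were set against those with only Itgam transcripts. Cd27 marks earlier and Itgam, which encodes CD11b, later stages of NK cell maturation in the mouse.

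The analysed set held 11696 cells with 1 tag, with 3590, 4213 and 3893 cells and 18485480, 23091461 and 22465648 transcript counts (unique molecular identifiers, UMIs) in tags 1, 2 and 3. There were 8623 NK-like, 638 ILC1-like, 157 T cell-like, 713 B cell-like, 559 dendritic-like, 125 erythroid-like, 147 stromal-like and 161 progenitor-like cells. Median depth ran between 3845 UMIs in NK-like and 34262 in erythroid-like cells. Each of these classes showed its own markers, and at least 10% of the cells carried 6 of 8 stromal and 7 of 8 erythroid markers and the full list in the others. A UMI of Ncr1, Klrb1c or Klre1, which NK cells express, was present in 35.5% of B cell-like to 51.6% of T cell-like cells among the 6 compared classes that should lack them, 59.8% of platelet- or megakaryocyte-like and 71.4% of plasma cell-like cells, 95.3% of ILC1-like cells, which share these genes, and 99.4% of NK-like cells. The level of Gzma, an NK granule protease, was 1.82% (erythroid-like) to 11.3% (B cell-like) of the NK-like level in the same 6 classes, and 51.6% of it in platelet- or megakaryocyte-like cells. From the tag proportions, 15.3% of the analysed cells are expected to be doublets of the same tag. Comparisons were therefore repeated without cells that held such an NK UMI where enough cells remained.

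Each level is in counts per 1e+06 (CPM), which scales a gene's UMIs to the sum over all genes in the same cells. Each value is for 1 tag, and means are ± SD over the 3 tags. The assay reads the 3′ end of transcripts without scaling by length, so levels were compared between classes for the same gene and never between genes. A log2 fold change is the first class minus the second, from edgeR's quasi-likelihood test on summed UMIs with TMM scaling, and adjusted p is its Benjamini-Hochberg value over all genes tested. TMM scaling sets the bulk of genes equal between classes, so a fold can differ from the ratio of the CPM means. Its factors were 0.685 to 0.855 in erythroid-like and 1.08 to 1.10 in NK-like sums.

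Of the 9 genes, 7 lie on chromosome 17 and most of these in or beside the mouse MHC. On GRCm38 (mm10), the order is Tapbp at chr17:33915899-33929292, H2-K1 at chr17:33996017-34000347, Tap1 at chr17:34187553-34197225, Tap2 at chr17:34203527-34216321, H2-D1 at chr17:35262730-35267499, H2-Q7 at chr17:35439155-35443773 and H2-T23 at chr17:36029773-36032855. B2m is at chr2:122147686-122153083, and Nlrc5, the longest of them at 92.9 kb, is at chr8:94434356-94527272. B2m, H2-T23, Tap1, Tap2, Tapbp and Nlrc5 overlap other annotated genes that were also counted, among them Patl2 with B2m and Psmb9 with Tap1, both on the opposite strand. Zbtb22 overlaps Tapbp on the same strand, so strand cannot tell their reads apart. The strand setting of the counting is not given in the sources used here, so reads where genes overlap may be assigned to either gene or to neither. Of the 60-base words in the last 400 bases of each gene's first protein-coding transcript, 0 of 341 occurred in a transcript of another gene for B2m, H2-K1, H2-Q7, Tap1, Tap2, Tapbp and Nlrc5. H2-D1 shared 2.35% of them with H2-K1. H2-T23 shared 28.7% of them with other genes, most of all with Rab33b, so on this measure its counts are the least certain of the 9. Only exact words in these last bases were searched. H2-Q genes are close relatives, so H2-Q7 counts may be uncertain too.

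RefSeq promoter sequences (GRCm38.p6) were matched for 7 of the 9 genes: B2m, H2-K1, H2-D1, H2-Q7, H2-T23, Tap1 and Tapbp. The module through which NLRC5 works holds an X2 box, a site for CREB and ATF factors, and a Y box, a site for NF-Y, at a fixed distance. The letters TGACG followed by ATTGG after 19 to 21 bases were searched on both strands of the 300 bases around each start. The pair occurred in 4 of the 7 promoters, those of B2m, H2-K1, H2-D1 and H2-Q7, and in 0.207% of 27025 mouse promoters. These stretches upstream of the RefSeq start are shown so that the shared spacing can be seen, with H2-T23 as a class I promoter without the pair. The H2-D1 and H2-T23 stretches lie inside the gene positions given above, whose starts are farther upstream. Windows around those starts were not searched, so the lack of the pair in H2-T23 holds for the RefSeq start only. They are written 5′ to 3′ on the strand of the gene. In the first 4, the last 2 runs of capitals are the X2 and Y box letters. Earlier capitals mark the 10-base NF-kB site of the class I enhancer A, the first run in H2-K1, H2-D1 and H2-Q7, and TTTCNNTT, an interferon regulatory factor (IRF) type element, which in B2m is read on the opposite strand. In H2-T23 both runs of capitals are IRF-type elements.
B2m (chr2:122147534-122147648, plus strand): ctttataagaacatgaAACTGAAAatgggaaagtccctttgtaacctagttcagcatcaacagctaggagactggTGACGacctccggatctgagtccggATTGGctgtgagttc
H2-K1 (chr17:34000349-34000463, minus strand): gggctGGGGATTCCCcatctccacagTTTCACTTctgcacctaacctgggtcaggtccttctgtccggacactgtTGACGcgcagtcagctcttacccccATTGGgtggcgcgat
H2-D1 (chr17:35262918-35263032, plus strand): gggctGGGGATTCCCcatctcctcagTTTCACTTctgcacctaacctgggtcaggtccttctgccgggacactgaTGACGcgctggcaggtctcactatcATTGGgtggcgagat
H2-Q7 (chr17:35439016-35439129, plus strand): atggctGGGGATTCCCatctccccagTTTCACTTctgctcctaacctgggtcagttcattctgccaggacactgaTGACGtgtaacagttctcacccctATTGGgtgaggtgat
H2-T23 (chr17:36032722-36032831, minus strand): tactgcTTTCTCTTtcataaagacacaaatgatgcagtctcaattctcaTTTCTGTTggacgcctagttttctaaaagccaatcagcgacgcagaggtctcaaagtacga

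The X2 and Y letters were 20 bases apart in B2m, H2-K1 and H2-D1 and 19 bases apart in H2-Q7. The 3 heavy chain genes with the pair also carried the NF-kB letters, which occurred in 0.104% of all promoters, and the IRF-type letters, which occurred in 24.2%. X2 letters alone were found in 21.02% and Y letters alone in 37.9% of all promoters, so a match of either alone is common. Tap1 held X2 letters on its own strand with no Y letters downstream at that distance, and Tapbp held Y letters only. The Tapbp window also lies inside the gene position given above, whose start is farther upstream and was not searched. Its lack of the pair therefore holds for the RefSeq start only. A match describes these letters in this window and is not a measured binding site.

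**Figure D1:**
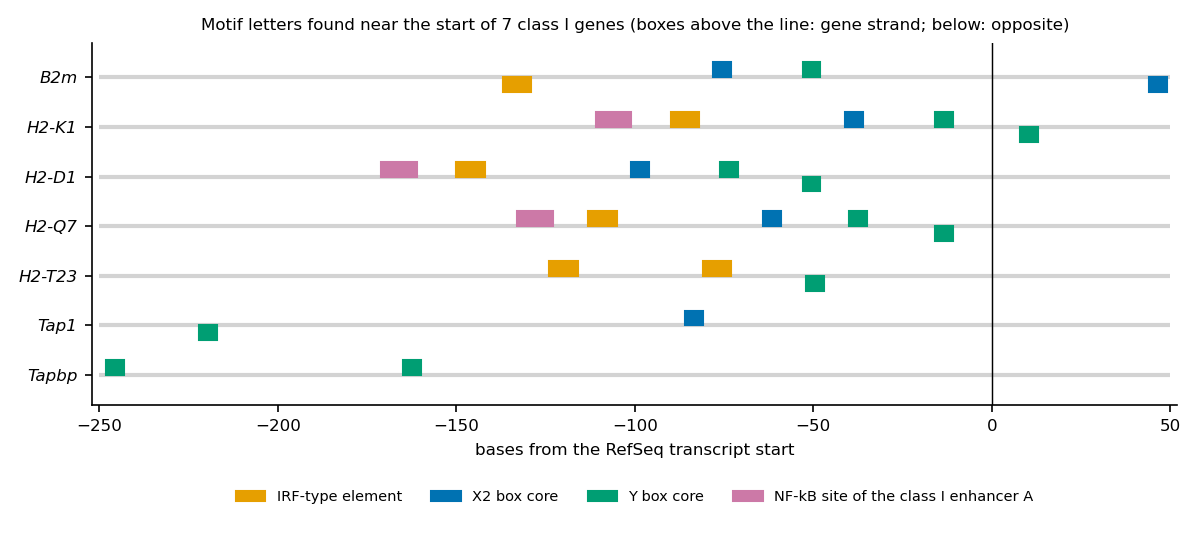
Position of the motif letters in bases from the RefSeq transcript start (x axis) for the 7 genes with a promoter sequence (rows); boxes above each line are matches on the gene's strand and boxes below it on the opposite strand. In B2m, H2-K1, H2-D1 and H2-Q7 an X2 box (blue) is followed by a Y box (green) at 19 or 20 bases, and the 3 heavy chain genes among them also hold the NF-kB letters (pink).

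B2m encodes the light chain that every class I heavy chain needs to reach the surface. It had 2448, 2480.3 and 2438 CPM in ILC1-like cells, 1867, 2228 and 1839 CPM in T cell-like cells and 1234, 1231 and 1112 CPM in B cell-like cells, against 1774, 1849.6 and 1821 CPM in NK-like cells. ILC1-like cells were above and B cell-like cells below NK-like cells in every tag, while the T cell-like and NK-like ranges overlapped. Dendritic-like cells had 2583, 2743 and 1774 CPM, erythroid-like cells 917, 1255 and 639 CPM, stromal-like cells 1837, 1512 and 1727 CPM and progenitor-like cells 1439, 1574 and 1214 CPM of B2m. Erythroid-like and progenitor-like cells lay below the NK-like values in every tag, and dendritic-like cells spanned them. In the order of mean B2m levels, ILC1-like cells stood first, then dendritic-like, T cell-like, stromal-like, progenitor-like, B cell-like and erythroid-like cells, with NK-like cells between T cell-like and stromal-like cells. The tag ranges of neighbours in that order overlapped in each case. Among classes with too few cells for a test, plasma cell-like cells had the highest mean, 2966 ± 391 CPM of B2m (n = 3).

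H2-K1 encodes the classical heavy chain H-2K, which presents peptides to CD8 T cells and binds Ly49 receptors. It had 2459, 2396 and 2227 CPM in ILC1-like cells and 1608, 1892 and 1427 CPM in T cell-like cells, against 2048, 2051 and 1971 CPM in NK-like cells. B cell-like cells had 1202, 1208 and 946 CPM of H2-K1 and dendritic-like cells 1659.9, 1879 and 1084 CPM. Of the classes named so far, ILC1-like cells alone lay above the H2-K1 values of NK-like cells. Erythroid-like cells had 581, 805 and 381 CPM, stromal-like cells 1145, 1443 and 1630.1 CPM and progenitor-like cells 1043, 1086 and 786 CPM of H2-K1. These ranges also lay below the NK-like range, and erythroid-like cells were lowest.

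H2-D1 encodes the other classical heavy chain of the reference strain, H-2D. It had 2308, 2499 and 2277 CPM in ILC1-like cells, 1413, 1673 and 1379 CPM in T cell-like cells and 1325, 1309.9 and 1169 CPM in B cell-like cells, against 2287, 2266 and 2309.6 CPM in NK-like cells. The H2-D1 values of NK-like cells overlapped those of ILC1-like cells and lay above those of T cell-like and B cell-like cells. Dendritic-like cells had 2128, 2246 and 1563 CPM, erythroid-like cells 639, 751 and 438 CPM, stromal-like cells 1225, 1453 and 1456 CPM and progenitor-like cells 1059, 966 and 766 CPM of H2-D1. All 4 classes lay below NK-like cells in each tag. Monocyte- or macrophage-like cells, which entered no comparison, averaged 2638 ± 267 CPM of H2-D1 (n = 3) and 1278 ± 169 CPM of H2-K1 (n = 3). Averaged over tags, these were 115% and 63.1% of the NK-like levels of the same genes.

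The balance of the classical heavy chains against their light chain was read as H2-K1 plus H2-D1 UMIs for each B2m UMI in the same cells, a ratio that does not depend on scaling between classes. It was 1.92 ± 0.066 in ILC1-like, 1.58 ± 0.049 in T cell-like, 2.00 ± 0.083 in B cell-like, 1.49 ± 0.019 in dendritic-like, 1.28 ± 0.045 in erythroid-like, 1.66 ± 0.33 in stromal-like and 1.35 ± 0.099 in progenitor-like cells, against 2.38 ± 0.060 in NK-like cells (n = 3 tags each). The ratio of NK-like cells, 2.33 to 2.44, lay above the values of all 7 classes in every tag. The highest ratio in any of the 7 was 2.05, in B cell-like cells. Of the classes not compared, plasma cell-like cells had 0.704 ± 0.17, but the 19 neutrophil-like cells had 2.39 ± 0.80. Within the NK-like class the ratio also varied by cluster. It was 2.03 ± 0.093 in the 160 cells led by Chl1 and Crtam and 2.08 ± 0.10 in the 278 cells led by Hist1h1b and Top2a. Means of the other NK-like clusters ran between 2.26 and 3.09. An exact permutation test over 3 tags cannot go below p = 0.25, so no p is given. H2-K1 to H2-D1 was 0.885 ± 0.028 in NK-like cells and 0.484 ± 0.035 in monocyte- or macrophage-like cells.

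**Figure D2:**
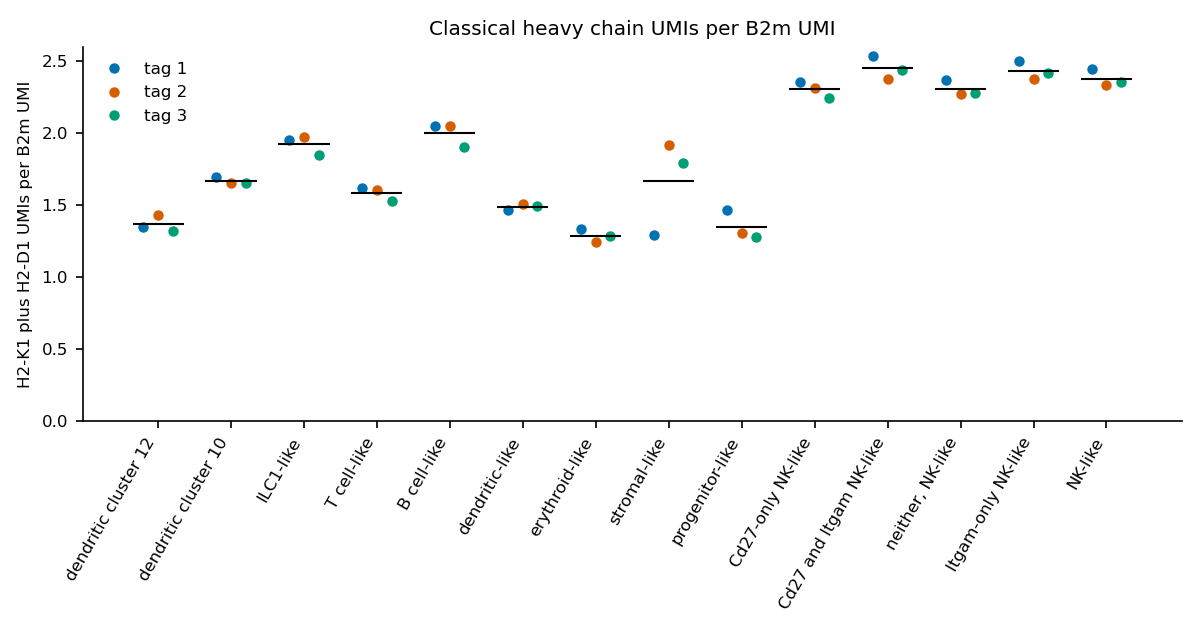
H2-K1 plus H2-D1 UMIs for each B2m UMI (y axis, from 0) in dendritic clusters 12 and 10, in 7 cell classes, in the 4 maturation classes of NK-like cells and in all NK-like cells (x axis); points are the 3 tags and lines their means. NK-like cells sit at 2.33 to 2.44, above every tag of the 7 other classes.

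H2-Q7 encodes the heavy chain of Qa-2, a nonclassical class I molecule. It had 591 ± 53.3 CPM in ILC1-like and 455 ± 109 CPM in T cell-like cells, against 541 ± 21.4 CPM in NK-like cells. In the other classes H2-Q7 means lay between 159 CPM (erythroid-like) and 294 CPM (dendritic-like), and no tag of these classes reached the NK-like values. Among these 8 classes, NK-like, ILC1-like and T cell-like cells had the highest H2-Q7 means, while B cell-like cells had 221 ± 55.3 CPM.

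H2-T23 encodes Qa-1, which shows leader peptides of other class I heavy chains to the CD94/NKG2A receptor of NK cells. Its levels ran differently: 238 ± 44.7 CPM in dendritic-like, 173 ± 8.49 CPM in ILC1-like, 169 ± 30.5 CPM in progenitor-like, 164 ± 16.3 CPM in B cell-like and 133 ± 12.4 CPM in T cell-like cells, against 135 ± 4.17 CPM in NK-like cells. Stromal-like cells had 239.7 CPM of H2-T23 in tag 1, which held only 10 such cells, and 114 and 113 CPM in the others. Erythroid-like cells were lowest, with 57.6, 64.5 and 42.8 CPM.

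Tap1 and Tap2 encode the subunits of the peptide transporter, and Tapbp encodes tapasin. Tap1 had 187, 169.6 and 104 CPM in dendritic-like cells, against 50.02, 55.7 and 57.2 CPM in NK-like cells. In the other 6 classes Tap1 means were 31.7 to 77.6 CPM. Tap2 had its highest mean in dendritic-like cells too, 116 ± 16.2 CPM, followed by ILC1-like cells with 107 ± 7.71 CPM, against 74.98 ± 4.95 CPM in NK-like cells. Tapbp had 226, 299 and 273 CPM in stromal-like cells and 224, 225 and 187 CPM in dendritic-like cells, against 99.1, 103 and 103 CPM in NK-like cells. Among the classes compared, stromal-like cells therefore had the highest Tapbp levels and at the same time the lowest Tap1 mean, 31.7 ± 20.3 CPM. Their Tap1 level ran between 22.5% and 106.5% of the NK-like level in the same tag. Dendritic cluster 12 taken alone, described below, had a higher Tapbp mean, 319.4 ± 11.3 CPM.

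Nlrc5 varied most between classes. It had 252, 322 and 158 CPM in dendritic-like cells, 99.5, 185 and 156 CPM in T cell-like cells and 126, 138 and 127 CPM in ILC1-like cells, against 97.4, 122 and 94.3 CPM in NK-like cells. B cell-like cells had 58.7, 61.2 and 49.7 CPM of Nlrc5 and progenitor-like cells 44.7, 58.6 and 29.1 CPM. Below these stood stromal-like cells with 53.3, 19.8 and 6.43 CPM and erythroid-like cells with 17.6, 25.5 and 5.75 CPM. The B cell-like, progenitor-like, stromal-like and erythroid-like ranges all lay below the NK-like range for Nlrc5. The low end rests on 23 Nlrc5 UMIs in all stromal-like and 42 in all erythroid-like cells, which is 18.5 CPM (95% exact Poisson interval 11.7 to 27.7) and 10.5 CPM (7.58 to 14.2), intervals that cover counting error only.

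**Figure D3:**
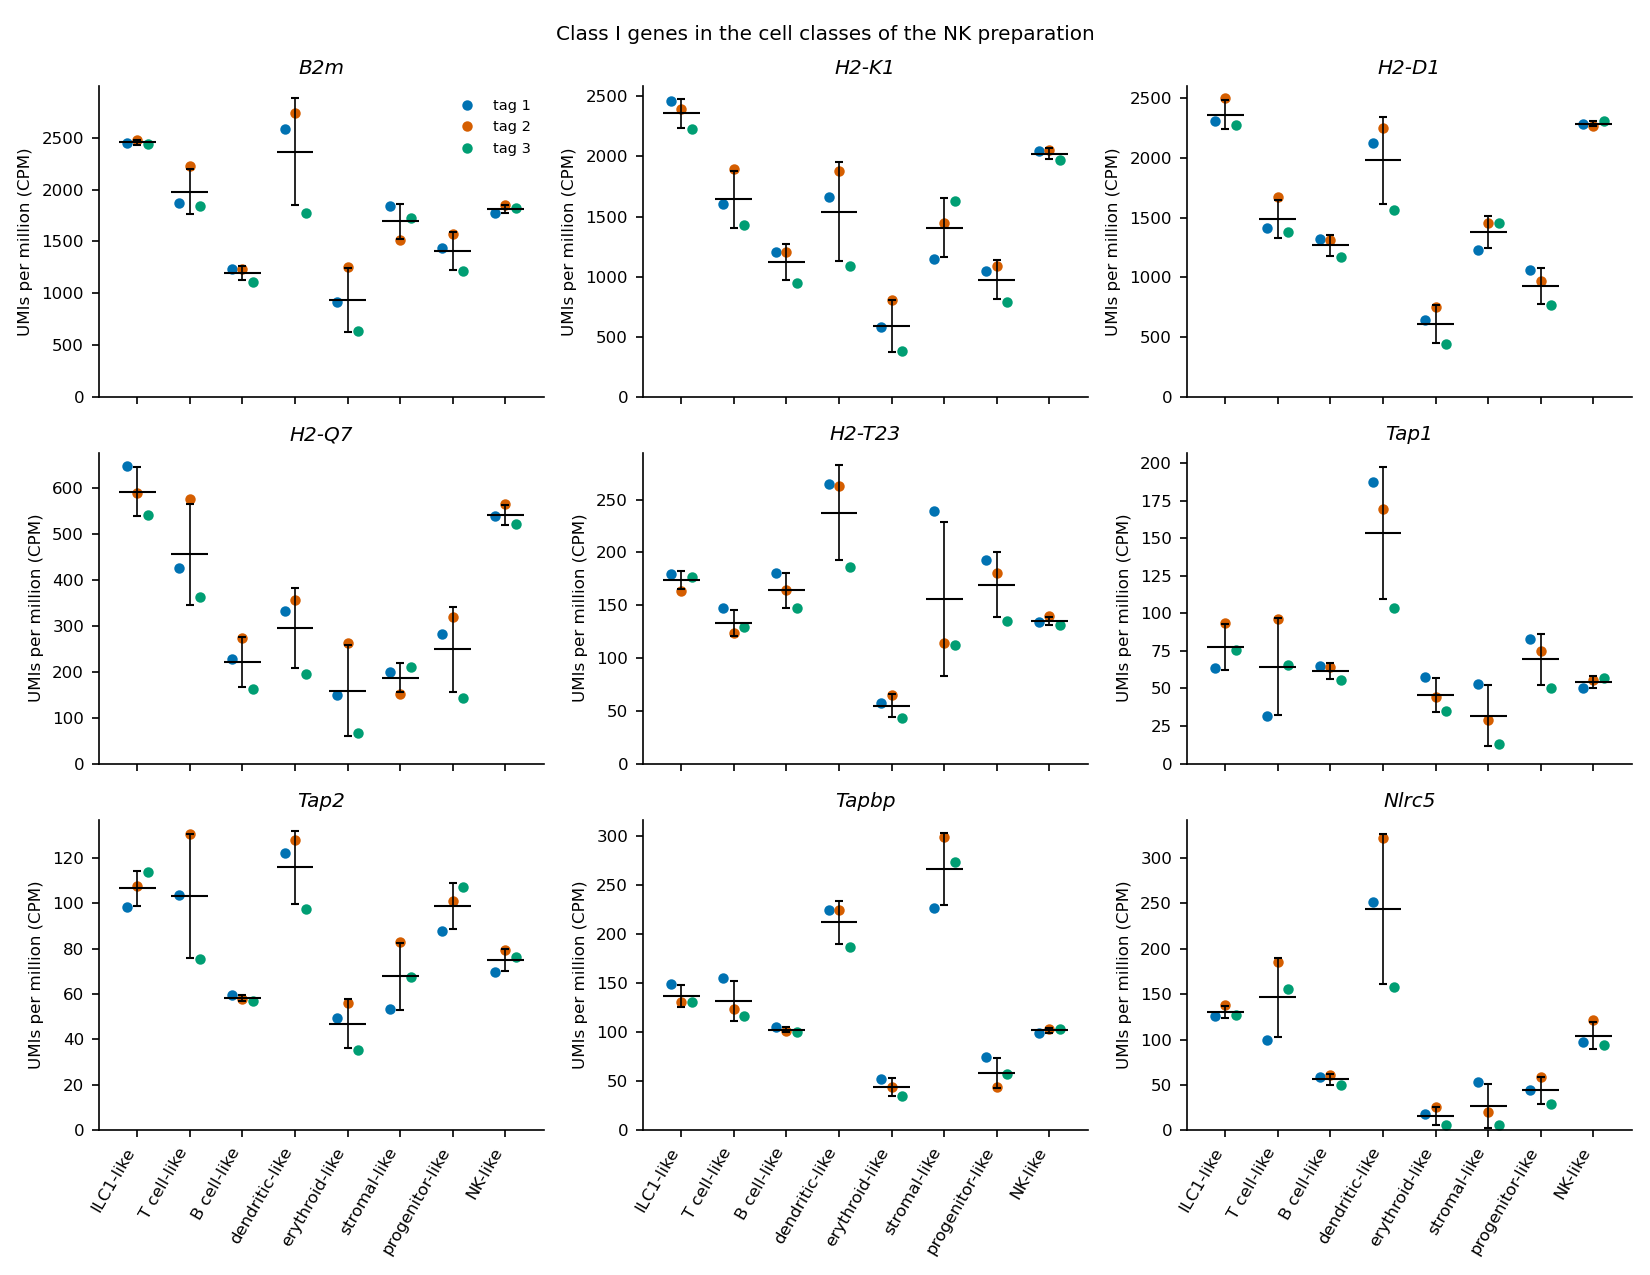
Level of each of the 9 genes in CPM (y axis, from 0, one scale per gene) in 7 cell classes and, on the right, in NK-like cells; points are the 3 tags, and bars the mean ± SD. B2m is 2438 to 2480.3 CPM in ILC1-like and 1774 to 1849.6 CPM in NK-like cells, while Nlrc5 reaches 322 CPM in dendritic-like cells and 5.75 CPM in erythroid-like cells.

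Across the 12 named classes, the genes whose level pattern was most like that of a member were ranked by Pearson's r of log2(mean CPM + 1) among 13035 genes, as a description of classes that share a library. For Tap1 the closest was Psmb8 (r = 0.92), a subunit of the immunoproteasome, and Psmb9, whose annotated body overlaps Tap1, was also among the closest 5 (r = 0.90). Psmb8 was second for Tap2 (r = 0.90), after the class I heavy chain gene H2-Q4 (r = 0.92). Nlrc5 was closest to Dock10 (r = 0.98), H2-K1 to Rnf43 (r = 0.95) and B2m to Zbp1 (r = 0.82). Among the members themselves, Nlrc5 had r of 0.78 with Tap1, 0.77 with Tap2, 0.77 with H2-K1, 0.78 with H2-Q7 and 0.44 with B2m.

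NK-like cells were classed by Cd27 and Itgam UMIs after thinning each cell to 2500 UMIs, which left out 1273 shallower cells. There were 932 Cd27-only, 466 double-positive, 3368 double-negative and 2584 Itgam-only cells. B2m averaged 1851 ± 60.8 CPM in Cd27-only, 1815 ± 78.5 CPM in double-positive, 1862 ± 39.4 CPM in double-negative and 1827 ± 35.03 CPM in Itgam-only cells, with overlapping tag ranges. For H2-K1 the means lay between 2024 and 2106 CPM. H2-D1 had 2117, 2235 and 2274 CPM in Cd27-only cells, against 2429, 2386 and 2389 CPM in Itgam-only cells. These H2-D1 ranges did not overlap, but the difference of -0.07 (SE 0.04) on the log2 scale did not pass the test (adjusted p = 0.196). H2-D1 was called lower with library sizes alone (-0.12, adjusted p = 0.0132 by edgeR), without a filter (-0.10, adjusted p = 0.0465 by edgeR) and with classes from unthinned counts (-0.13, adjusted p = 0.00149 by edgeR).

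Between Cd27-only and Itgam-only cells, 2 of the 9 genes were called, both higher in Cd27-only cells, where 7.55% of the 10607 genes tested were called higher and 4.95% lower. Tap2 had 76.0, 94.5 and 89.2 CPM in Cd27-only cells, against 66.3, 74.5 and 68.998 CPM in Itgam-only cells, a log2 fold change of 0.36 (SE 0.09, adjusted p = 0.00426). Nlrc5 had 106, 133 and 106 CPM in Cd27-only cells, against 94.4, 112 and 83.2 CPM in Itgam-only cells, a log2 fold change of 0.30 (SE 0.08, adjusted p = 0.00794). Both were higher within each of the 3 tags, although the Nlrc5 ranges overlapped. The median log2 fold change of the 9 was 0.09, against -0.00031 over all genes tested. Without tag 2 neither was called, and without tag 3 Nlrc5 was not. Requiring 2 or more Cd27 or Itgam UMIs, the Nlrc5 difference was 0.14 (adjusted p = 0.764 by edgeR), and with no replicate block it was 0.30 (adjusted p = 0.283 by edgeR), neither of which passed. Of the Cd27-only cells, 82.3% held exactly 1 Cd27 UMI, so they lie close to their gate. With library sizes alone in place of TMM, 45.6% rather than 60.4% of all calls were higher in Cd27-only cells.

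The immunoproteasome and its PA28 activator, which make and shape class I peptides, moved the same way along this axis. Of 7 such genes, 5 rose in Cd27-only cells, where 7.55% of all genes tested were called higher and 4.95% lower. Psmb8 was among the 5, with 456 ± 32.7 CPM in Cd27-only and 396 ± 9.1 CPM in Itgam-only cells (log2 fold change 0.26, SE 0.05, adjusted p = 0.000102 by edgeR). Psmb9 and Psme2 changed by 0.26 and 0.27 on the same scale. Tapbpl, a tapasin relative that edits peptides, had 73.3 ± 5.1 CPM in Cd27-only and 48.9 ± 4.8 CPM in Itgam-only cells (log2 fold change 0.64, SE 0.11). Of 13 interferon-stimulated genes tested, 3 rose, with Ly6e at 384 ± 16 CPM in Cd27-only and 228 ± 13 CPM in Itgam-only cells. Irf8, a factor of the IRF family, fell by 0.66 on the log2 scale, and Ifngr1, the ligand-binding chain of the interferon gamma receptor, fell by 0.24. Of 14 receptors that bind class I, 2 rose and 5 fell. Cd160 rose by 1.36, and Klra9, which encodes a Ly49 receptor, was 1.09 lower; counts of Klra genes may be split between near-identical copies.

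ILC1-like cells, tissue-type innate lymphocytes that share many NK genes, had higher class I levels than NK-like cells by CPM for 9 of 9 means. The ranges did not overlap for B2m, H2-K1, H2-T23, Tap1, Tap2, Tapbp and Nlrc5. In the fit over all classes only Tap2 was called, 1 of 9, where 6.09% of the 10754 genes tested were called higher and 5.87% lower. Tap2 had 98.5, 108 and 114 CPM in ILC1-like cells, against 69.6, 79.3 and 76.1 CPM in NK-like cells (log2 fold change 0.48, SE 0.14, adjusted p = 0.0138). B2m changed by 0.40 (SE 0.14, adjusted p = 0.0606) and Tapbp by 0.39 (SE 0.14, adjusted p = 0.0665). The median of the 9 was 0.33, against -0.05 over all genes. The number of calls depended on the fit: 7 of 9 were called in a fit of these classes alone and 4 of 9 by DESeq2 or with library sizes alone. In the fit of these classes alone the SE of B2m was 0.04, against 0.14 with the spread pooled over all classes. Leaving out any 1 tag left 0 of 9 called by edgeR. DESeq2 placed 64.2% rather than 50.9% of all calls on the higher side.

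Several interferon-related genes rose in ILC1-like cells beside these values. Of 16 interferon-stimulated genes, 7 rose and the others did not pass, where 6.09% of all genes were called higher and 5.87% lower. Isg15 had 96.7 ± 28 CPM in ILC1-like and 23.03 ± 4.5 CPM in NK-like cells (log2 fold change 2.02, SE 0.25). Jak2, a kinase of interferon gamma signaling, rose by 0.82, while Irf8 fell by 1.27 on the log2 scale. Of 16 receptors that bind class I, 9 fell and 3 rose, with Klra4 at 144 ± 35 CPM in ILC1-like and 1663 ± 84 CPM in NK-like cells and Klra8 at 182 ± 46 CPM in ILC1-like and 1519 ± 66 CPM in NK-like cells; Klra4 and Klra8 were among the markers that named NK-like cells.

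In T cell-like cells Tap2, Tapbp and Nlrc5 were called higher and H2-D1 lower than in NK-like cells in the fit over all classes. The 3 higher calls depended on the settings. Of the 9 genes, 3 were called higher, where 7.78% of all genes were, and 1 lower, where 9.02% were. Nlrc5 differed by 0.75 (SE 0.22, adjusted p = 0.0149), Tapbp by 0.54 (SE 0.18, adjusted p = 0.0293), Tap2 by 0.53 (SE 0.19, adjusted p = 0.0473) and H2-D1 by -0.46 (SE 0.15, adjusted p = 0.0228). H2-D1 and Tapbp were lower and higher in 3 of 3 tags without overlap, whereas the Nlrc5 and Tap2 ranges overlapped those of NK-like cells. Tap2 was higher in 2 of 3 tags. The 157 cells gave 25 to 91 cells in each tag. Scaled by library size alone, 0 of 9 were called higher and the median of all genes moved to -0.35, against -0.16 with TMM. That setting placed 27.5%, and DESeq2 62.1%, rather than 46.3% of all calls on the higher side. Without tag 2 or without tag 3, 0 of 9 were called higher, and without tag 1 only 1 was. H2-D1 was not called without tag 1 or without tag 3. Nlrc5 was not called by DESeq2 (adjusted p = 0.0898) or, by edgeR, with no replicate block (adjusted p = 0.122) or with library sizes alone (adjusted p = 0.0684). With T cell-like cells that held an NK UMI left out, 2 of 9 were higher and 2 lower. Tap2 was then not called (0.38, adjusted p = 0.406 by edgeR), and H2-K1 was called lower (-0.43, adjusted p = 0.0215 by edgeR). Of 16 interferon-stimulated genes, 8 rose in T cell-like cells.

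B cell-like cells had lower light and heavy chain transcripts than NK-like cells, with H2-T23 as the exception. In B cell-like cells 5 of the 9 were called lower, where 18.4% of all genes were, and 1 higher, where 16.6% were. H2-Q7 differed by -1.18 (SE 0.19, adjusted p = 2.22e-06), H2-K1 by -0.70 (SE 0.16, adjusted p = 0.000339), H2-D1 by -0.69 (SE 0.14, adjusted p = 0.000117), Nlrc5 by -0.69 (SE 0.20, adjusted p = 0.00603) and B2m by -0.45 (SE 0.14, adjusted p = 0.0129). All 5 were lower in 3 of 3 tags without overlap. H2-T23 was higher by 0.44 (SE 0.15, adjusted p = 0.0166), with 180.1, 164 and 148 CPM in B cell-like cells, against 134, 139 and 131 CPM in NK-like cells. Without any 1 tag, or with library sizes alone, H2-T23 was not called, and without tag 3 B2m was not. By DESeq2 Nlrc5 was not called (-0.61, adjusted p = 0.173). With B cell-like cells that held an NK UMI left out, 5 of 9 were again lower and 1 higher. Scaling by library size moved the median of all genes to -0.23, against -0.07 with TMM, and 33.1% rather than 47.3% of all calls were higher; DESeq2 gave 57.7%.

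Of 14 factors that act on class I promoters, 2 rose and 2 fell in B cell-like cells, shares below the 16.6% and 18.4% of all genes. Irf1, an interferon-induced activator, had 65.9 ± 13 CPM in B cell-like and 166 ± 14 CPM in NK-like cells (log2 fold change -1.19, SE 0.19). Ciita, the NLRC5 relative that drives MHC class II, had 118 ± 11 CPM in B cell-like and 0.728 ± 0.16 CPM in NK-like cells. Ifngr1 fell by 2.24 on the log2 scale, while Ifngr2, the signaling chain of the same receptor, had 53.5 ± 10 CPM in B cell-like and 0.518 ± 0.16 CPM in NK-like cells. Of 9 other class I heavy chain genes tested, 3 rose (H2-M3, Cd1d1 and Fcgrt) and 1 fell, with a median log2 fold change of -0.22, against 16.6% of all genes higher and 18.4% lower. H2-M3 had 69.2 ± 6.5 CPM in B cell-like and 43.7 ± 1.8 CPM in NK-like cells.

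Ifngr2 was near 0 in both innate lymphoid classes and present in every other tested class. Its level was 1.82 ± 1.4 CPM in ILC1-like, 59.9 ± 41 CPM in T cell-like, 104 ± 15 CPM in dendritic-like, 19.1 ± 16 CPM in erythroid-like, 74.99 ± 63 CPM in stromal-like and 17.9 ± 5.3 CPM in progenitor-like cells, against 0.518 ± 0.16 CPM in NK-like cells. Ifngr1 ran the other way in these cells, with 838 ± 53 CPM in NK-like cells and 157 to 599.6 CPM in the 7 other classes.

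Dendritic-like cells, which take up and present antigen, had higher levels of the loading genes and of Nlrc5 than NK-like cells. In dendritic-like cells 6 of the 9 were called higher, where 27.6% of all genes were, and 1 lower, where 27.1% were. Tap1 differed by 1.74 (SE 0.17, adjusted p = 6.93e-12), Nlrc5 by 1.46 (SE 0.17, adjusted p = 1.2e-09), Tapbp by 1.33 (SE 0.13, adjusted p = 2.17e-11), H2-T23 by 1.08 (SE 0.14, adjusted p = 1.3e-08), Tap2 by 0.89 (SE 0.13, adjusted p = 2.07e-07) and B2m by 0.64 (SE 0.14, adjusted p = 0.000218). The first 5 were higher in 3 of 3 tags without overlap, and B2m was higher in 2 of 3. H2-Q7 was lower by 0.65 on the log2 scale (SE 0.18, adjusted p = 0.00251), and H2-K1 and H2-D1 did not pass, with -0.14 (SE 0.16) and 0.05 (SE 0.14) after TMM scaling, although their CPM were below those of NK-like cells in 3 of 3 tags. The call of H2-Q7 was lost by DESeq2 and without tag 3. The median of the 9 was 0.89, against -0.05 over all genes. With dendritic-like cells that held an NK UMI left out, 6 of 9 were again higher and 1 lower. Scaling by library size moved the median of all genes to -0.32, and 34.7% rather than 50.4% of all calls were higher.

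**Figure D4:**
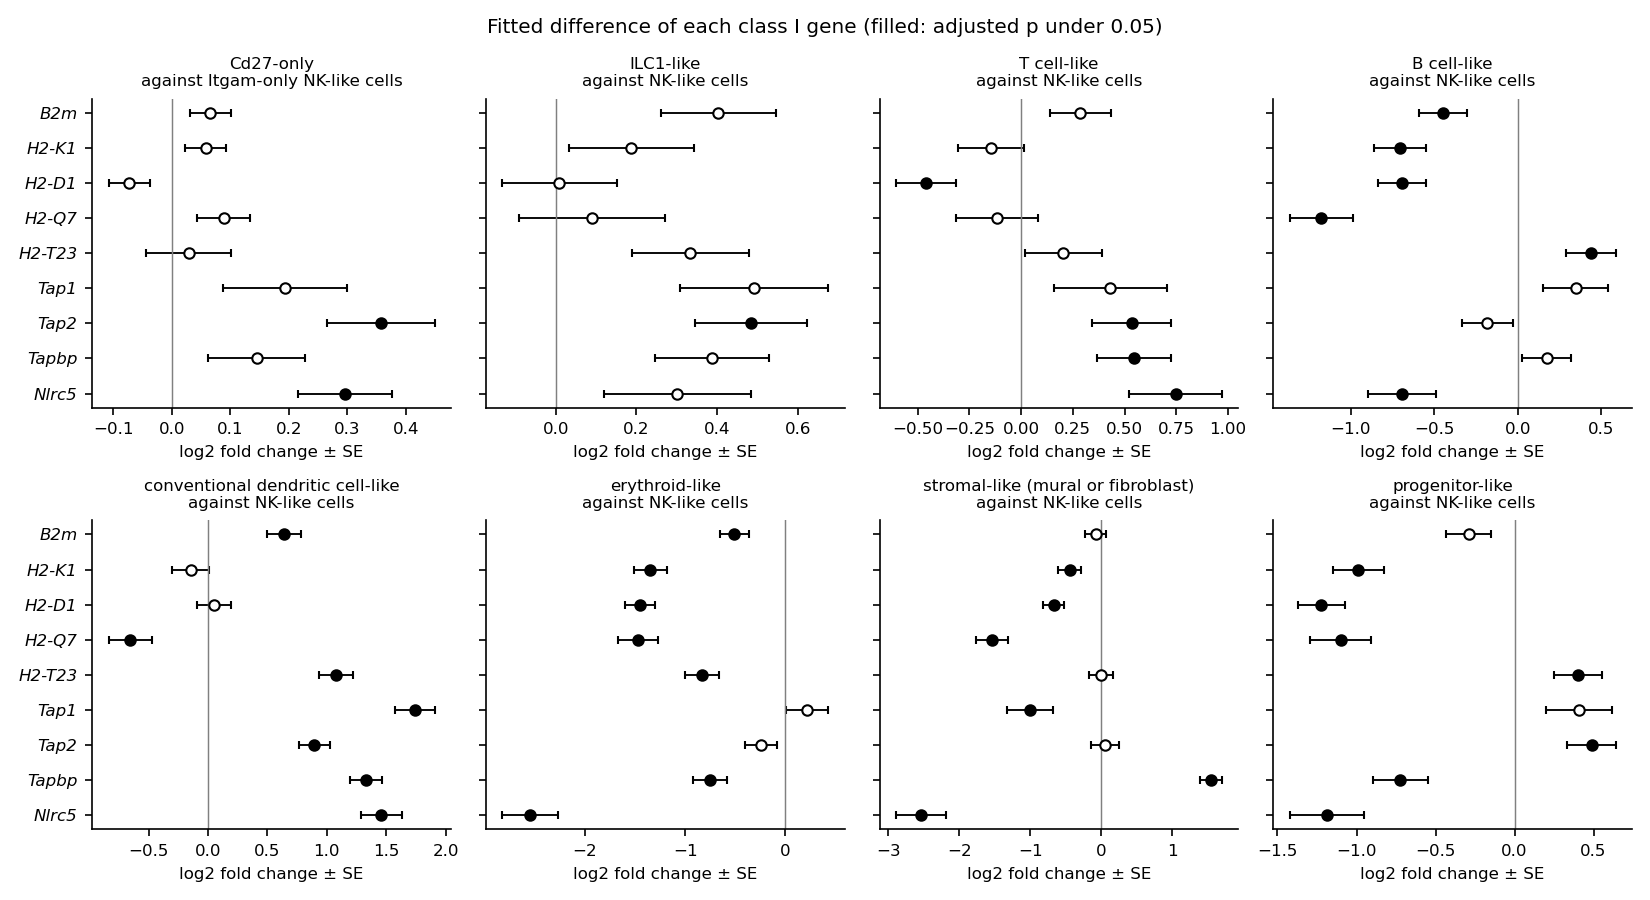
Log2 fold change ± SE (x axis, edgeR, first class minus second; scale differs by panel) of the 9 genes (rows) in 8 comparisons; filled points passed the adjusted p threshold of 0.05. Dendritic-like cells are filled and positive for 6 of 9 genes, and erythroid-like cells filled and negative for 7 of 9.

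These averages covered 2 dendritic-like clusters with different class I levels. Cluster 12, with 263 cells led by Fscn1 and Ccr7, genes of mature migratory dendritic cells, was set against cluster 10, with 296 cells led by Plbd1, Cst3, Wdfy4 and Cadm1. The members had been left out of the clustering, but this comparison was chosen after the levels had been seen. B2m had 4393, 4092 and 3595 CPM in cluster 12, against 1460.2, 1661 and 1216 CPM in cluster 10. H2-K1 had 2761, 2858 and 2268 CPM in cluster 12, against 977, 1093 and 722 CPM in cluster 10. For both genes, cluster 12 lay above and cluster 10 below NK-like cells in each tag. Nlrc5 had 522, 594 and 525 CPM in cluster 12, against 84.4, 103 and 44.9 CPM in cluster 10, and the same was true of it.

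All 9 genes were called higher in cluster 12 than in cluster 10, where 20.4% of 10682 genes were and 22.3% were lower. Nlrc5 differed by 2.98 (SE 0.21, adjusted p = 1.13e-15), H2-Q7 by 2.01 (SE 0.20, adjusted p = 2.9e-11), H2-K1 by 1.62 (SE 0.16, adjusted p = 1.22e-11), B2m by 1.60 (SE 0.14, adjusted p = 1.93e-12), H2-T23 by 1.22 (SE 0.16, adjusted p = 1.59e-08) and Tapbp by 1.16 (SE 0.15, adjusted p = 3.29e-08). H2-D1 differed by 1.07, Tap2 by 1.03 and Tap1 by 0.54 (SE 0.20, adjusted p = 0.0227). Tap1 was the one gene whose tag ranges overlapped, with 237, 184 and 126 CPM in cluster 12, against 156, 158 and 96.9 CPM in cluster 10, and it was not called without tag 2. The 9 genes together took 1.16% of all gene UMIs in cluster 12 and 0.463% in cluster 10. Median depth was 6463 UMIs in cluster 12 and 9862.5 in cluster 10, and Gzma, as a measure of NK RNA, had 533 and 546 CPM. Scaling by library size moved the median of all genes to -0.18, against -0.08 with TMM. The balance between the clusters differed by tag, with 86, 120 and 57 cells of cluster 12 and 82, 84 and 130 of cluster 10 in tags 1, 2 and 3, and tag 3 had the lowest dendritic-like value for each of the 9 genes.

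H2-M2, a nonclassical heavy chain gene, had 422 ± 123 CPM in cluster 12 and 24.5 ± 16 CPM in cluster 10 (log2 fold change 4.29, SE 0.22), and H2-Q4 and H2-Q6 differed by 2.66 and 2.26; H2-Q genes are close relatives and their counts are uncertain. Of 9 such heavy chain genes tested, 6 rose and 2 fell. Tapbpl rose by 2.12 and Psme2 by 1.51, but Hsp90b1 fell by 1.66 and Hspa5 by 1.22 on the log2 scale, and of the 10 peptide loading and folding genes 1 rose and 6 fell. Of the promoter-binding factors, Irf1 had 490.1 ± 74 CPM in cluster 12 and 70.2 ± 30 CPM in cluster 10 (log2 fold change 2.97, SE 0.22), Rela rose by 1.43 and Irf8 fell by 1.75. Of 16 interferon-stimulated genes, 3 rose and 5 fell, shares close to the 20.4% and 22.3% of all genes. Gbp2, an interferon-induced GTPase, rose by 3.04 on the log2 scale. Ifngr1 had 93.4 ± 13 CPM in cluster 12 and 505 ± 3.4 CPM in cluster 10.

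**Figure D5:**
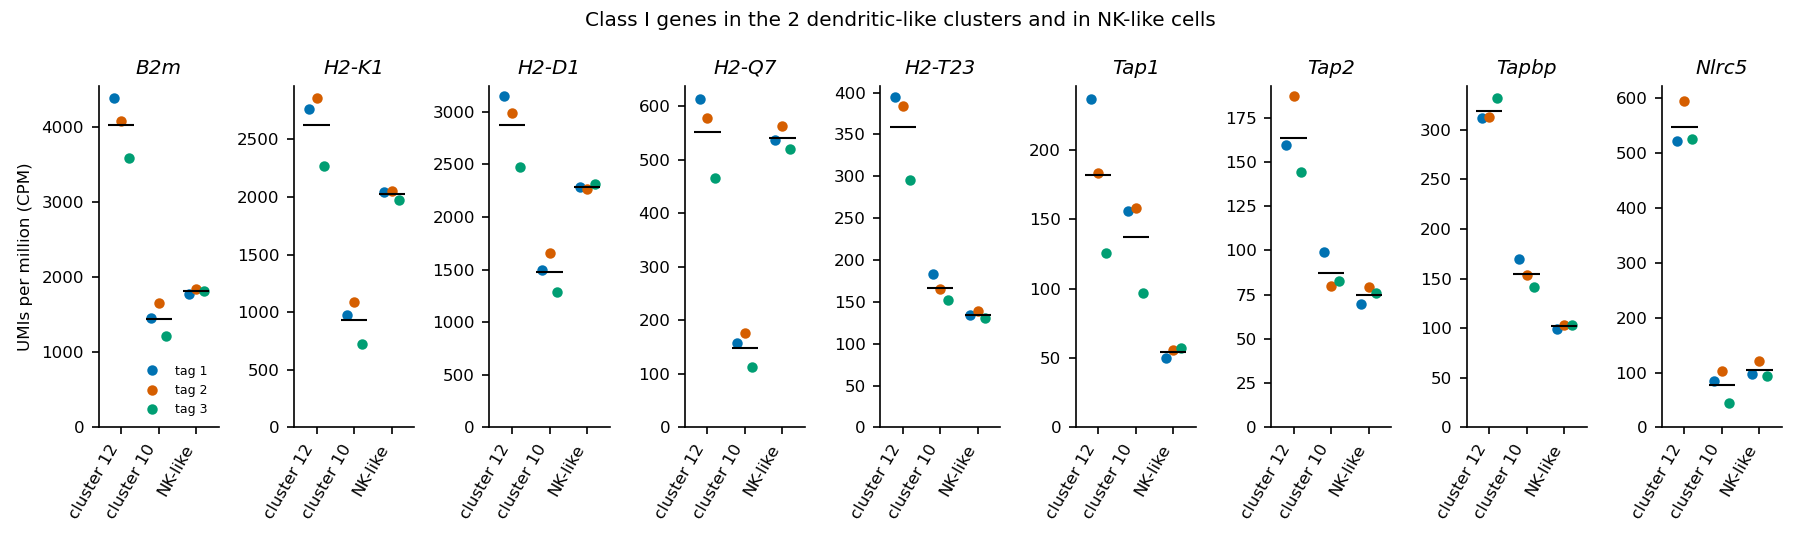
Level of each of the 9 genes in CPM (y axis, from 0, one scale per gene) in dendritic clusters 12 and 10 and in NK-like cells; points are the 3 tags and lines their means. Nlrc5 is 522 to 594 CPM in cluster 12, 44.9 to 103 CPM in cluster 10 and 94.3 to 122 CPM in NK-like cells.

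Among the classes compared, erythroid-like cells had the lowest mean levels of most of the 9 genes. Of the 9, 7 were called, all lower, where 32.5% of all genes were called lower and 35.9% higher. Nlrc5 differed by -2.55 (SE 0.28, adjusted p = 1.25e-10), H2-Q7 by -1.47 (SE 0.20, adjusted p = 1.85e-08), H2-D1 by -1.45 (SE 0.15, adjusted p = 1.48e-11), H2-K1 by -1.35 (SE 0.16, adjusted p = 1.05e-09), H2-T23 by -0.83 (SE 0.17, adjusted p = 4.12e-05), Tapbp by -0.75 (SE 0.17, adjusted p = 0.00014) and B2m by -0.51 (SE 0.15, adjusted p = 0.00212). All 7 were lower in 3 of 3 tags without overlap. Tap1 did not pass, and its value of 0.22 (SE 0.21) turned to -0.34 with library sizes alone. That setting moved the median of all genes to -0.57, against -0.05 with TMM, and DESeq2 to 0.26; 37.2% rather than 52.5% of all calls were then higher. With library sizes alone 8 of 9 were called lower, and without tag 3 B2m was not called.

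The erythroid-like class held 2 clusters, and the one with the most hemoglobin transcripts had the lower class I levels. B2m had 754, 932 and 478 CPM in the hemoglobin-rich cluster of 61 cells, against 1034, 1392 and 928 CPM in the other, of 64 cells. Nlrc5 had 0, 5.72 and 5.03 CPM in the hemoglobin-rich cluster, against 30.2, 33.8 and 7.06 CPM in the other. Tags 1 and 2 held only 6 and 4 hemoglobin-rich cells, so these Nlrc5 values rest on very few UMIs. In tag 3, with 51 such cells, the 2 clusters were close, at 5.03 and 7.06 CPM. Tag 3 gave 51 of the 61 hemoglobin-rich cells and had the lowest erythroid-like value of B2m, H2-K1, H2-D1, H2-Q7, H2-T23, Tap1, Tap2, Tapbp and Nlrc5. Of 10 peptide loading and folding genes, 5 rose and 3 fell in erythroid-like cells, against 35.9% of all genes higher and 32.5% lower. Tapbpl fell by 2.02 on the log2 scale. Canx had 251 ± 18 CPM in erythroid-like and 116 ± 3.5 CPM in NK-like cells (log2 fold change 1.65, SE 0.14) and Calr rose by 1.41. Irf8, Irf2 and Irf1 fell by 5.53, 2.00 and 1.93, and 8 of 16 interferon-stimulated genes fell while 3 rose.

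Stromal-like cells, with Dcn and Col3a1 among their leading transcripts, combined high tapasin with little Nlrc5. In stromal-like cells 5 of the 9 were called lower, where 23.8% of all genes were, and 1 higher, where 28.6% were. Tapbp differed by 1.55 (SE 0.16, adjusted p = 1.72e-11), and Nlrc5 by -2.54 (SE 0.35, adjusted p = 5.07e-08). H2-Q7 differed by -1.54 (SE 0.23, adjusted p = 1.86e-07), Tap1 by -1.004 (SE 0.32, adjusted p = 0.00813), H2-D1 by -0.67 (SE 0.15, adjusted p = 0.000187) and H2-K1 by -0.44 (SE 0.16, adjusted p = 0.021). B2m did not pass, with -0.07 (SE 0.15). Tapbp was higher and Nlrc5, H2-Q7, H2-D1 and H2-K1 lower in 3 of 3 tags without overlap, while Tap1 was lower in 2 of 3. Tap1 was not called without tag 2 or without tag 3, and H2-K1 was not called without tag 1. By DESeq2 3 of 9 were lower, the median of all genes was 0.30, against -0.01 by edgeR, and 68.2% rather than 54.7% of all calls were higher.

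Of 16 interferon-stimulated genes, 11 rose and 1 fell in stromal-like cells, against 28.6% of all genes higher and 23.8% lower, and their median log2 fold change was 1.27, against -0.01 over all genes. Iigp1, an interferon gamma-induced GTPase, had 178 ± 49 CPM in stromal-like and 1.16 ± 0.55 CPM in NK-like cells, and Ifit1 had 76.6 ± 15 CPM and 2.53 ± 0.87 CPM. Of 7 immunoproteasome and PA28 genes, 2 fell, a share near the 23.8% of all genes: Psmb8 fell by 0.90 (SE 0.17) and Psmb9 by 0.99 (SE 0.24) on the log2 scale. Of 10 peptide loading and folding genes, 5 rose and 1 fell, with Calr at 453 ± 32 CPM in stromal-like and 167 ± 4.4 CPM in NK-like cells and Pdia3, a partner of tapasin, higher by 1.37. Fcgrt, the neonatal Fc receptor heavy chain that also pairs with beta-2 microglobulin, had 149.9 ± 32 CPM in stromal-like and 0.529 ± 0.18 CPM in NK-like cells.

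Progenitor-like cells, with Meis1 and Cdk6 among their leading transcripts, had lower classical heavy chains than NK-like cells. Tap2 and H2-T23 were called higher, but these calls depended on the settings. In progenitor-like cells 5 of the 9 were called lower, where 22.6% of all genes were, and 2 higher, where 29.7% were. H2-D1 differed by -1.22 (SE 0.15, adjusted p = 2.48e-09), Nlrc5 by -1.19 (SE 0.24, adjusted p = 4.59e-05), H2-Q7 by -1.10 (SE 0.19, adjusted p = 7.04e-06), H2-K1 by -0.99 (SE 0.16, adjusted p = 1.41e-06) and Tapbp by -0.72 (SE 0.17, adjusted p = 0.000498). All 5 were lower in 3 of 3 tags without overlap. Tap2 was higher by 0.49 (SE 0.15, adjusted p = 0.00676) and H2-T23 by 0.40 (SE 0.15, adjusted p = 0.0268). Without any 1 tag neither of these was called. Nor was either called without a filter or with every barcode kept, where H2-T23 differed by 0.06 (adjusted p = 0.725 by edgeR). The H2-T23 tag ranges overlapped those of NK-like cells. B2m did not pass (-0.29, SE 0.14, adjusted p = 0.0900 by edgeR), but it was lower in 3 of 3 tags without overlap. It passed the threshold in 6 of 12 alternatives. With progenitor-like cells that held an NK UMI left out, 6 of 9 were lower and 2 higher. By DESeq2 the median of all genes was 0.25, against 0.05 by edgeR. Of 16 interferon-stimulated genes, 9 rose and 2 fell in these cells, with Iigp1 at 47.8 ± 29 CPM in progenitor-like and 1.16 ± 0.55 CPM in NK-like cells, and Irf8 fell by 2.89 on the log2 scale.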

How the data were processed

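The authors deposited raw UMI counts for 32285 genes and 3 lipid tags in 16384 barcodes, and the file headers name Cell Ranger 7.0.0; the submitters' processing notes also name Seurat and mm10. Sources used here do not give the annotation, strand or intron settings of the counting. Of the barcodes, 15742 had 500 to 6000 genes and no more than 10% mitochondrial UMIs, and these stayed in if exactly 1 tag passed its Otsu threshold, which left 11696; 3567 carried several tags and 479 none. No doublet caller was run beyond this. Clusters came from leidenalg 0.10.2 in scanpy 1.11.5 (resolution 1.0) without the members, related lists, mitochondrial, ribosomal and cell cycle genes, and named from marker lists. A name needed 3 or more markers in 10% of cells, a marker score of 0.5 or above and no other type leading the top 10 genes. Sub-clustering of clusters led by another type's markers and the exclusion of a cluster led by Il23r were chosen after the data were seen, and left 339 cells unnamed. UMIs were summed per tag and class and fitted with edgeR 4.0.16 in R 4.3.3 (quasi-likelihood, TMM, filterByExpr, adjusted p under 0.05, tag as a block). The same tag marks the same pooled cells in each class, so tags pair the sums. All classes with at least 10 cells in every tag entered 1 fit, and the 4 maturation classes another. Alternatives included DESeq2 1.42.0, library size scaling, no filter, other cell sets and leaving out each tag. On simulated data the fits recovered set changes. Those changes were larger than many of the member differences, in well-counted genes, with a fixed spread and no other class differences. Smaller changes were not simulated. Named genes outside the 9 members were the 3 with the largest called change in each list. Their calls, and the list counts, were not followed through the alternatives. The members and lists were chosen with earlier results of these data known. Intervals cover counting error only.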

Additional observations from a re-analysis of the deposited data

Results flagged for a closer look

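B2m, H2-K1, H2-D1 and Nlrc5 lay above NK-like cells in dendritic cluster 12 and below them in dendritic cluster 10, in each of the 3 tags. The difference between the clusters, tested in 1 edgeR fit, was 1.60 for B2m, 1.62 for H2-K1, 1.07 for H2-D1 and 2.98 for Nlrc5 on the log2 scale, cluster 12 minus cluster 10. For H2-D1 the values were 3151, 2985 and 2472 CPM in cluster 12 and 1494, 1653 and 1285 CPM in cluster 10, against 2287, 2266 and 2309.6 CPM in NK-like cells. A mean over all dendritic-like cells placed H2-K1 and H2-D1 close to or below NK-like cells, between these clusters.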

How the results depend on the processing

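Leaving out a single tag ended the calls of Tap2 and Nlrc5 in Cd27-only, Tap2 in ILC1-like, H2-D1, Tap2, Tapbp and Nlrc5 in T cell-like, B2m and H2-T23 in B cell-like, H2-Q7 in dendritic-like, B2m in erythroid-like, H2-K1 and Tap1 in stromal-like and Tap2 and H2-T23 in progenitor-like cells, and of Tap1 between clusters 12 and 10. The depth per cell limits the maturation classes, which mostly rest on 1 UMI of Cd27 or Itgam. Tags mark the same pools in every class; with no replicate block, the Cd27-only fit called 452 genes higher and 252 lower and 1 member higher, and the T cell-like fit 1 member higher, and no other count moved by over 1.5 times. DESeq2 called 525 genes higher and 298 lower in Cd27-only cells, 4 members higher in ILC1-like, 0 lower in dendritic-like and 3 lower in stromal-like cells. With library sizes alone, members called higher were 4 in ILC1-like, 0 in T cell-like, 0 in B cell-like and 1 in progenitor-like cells, members called lower 1 (H2-D1) in Cd27-only and 2 in dendritic-like cells, and genes called lower 1773 in T cell-like, 3011 in B cell-like and 4573 in dendritic-like cells. Without a filter, members called higher were 0 in ILC1-like, 1 in T cell-like, 0 in B cell-like and 0 in progenitor-like cells, 1 member (H2-D1) was lower in Cd27-only cells, and 4755 genes were higher in stromal-like cells. With only the classes compared, ILC1-like cells had 1477 genes higher, 1293 lower and 7 members higher, B cell-like cells had 2 members higher, and 42.3% of erythroid-like calls were higher. At least 2 UMIs of the gate gene left 344 genes higher, 217 lower and 1 member higher in Cd27-only cells. Unthinned classes gave 1394 genes higher and 1068 lower, with 3 members higher, B2m among them, and 1 (H2-D1) lower. With every barcode kept whatever its tags, members higher were 1 in T cell-like, 0 in B cell-like and 0 in progenitor-like cells, the value of B2m CPM in ILC1-like cells was 2373, that of B2m CPM in B cell-like cells was 1277, and the heavy chain to B2m ratio was 1.74 in T cell-like, 2.09 in B cell-like, 1.56 in dendritic-like, 1.36 in erythroid-like and 1.47 in progenitor-like cells. At resolution 2.0 the ratio was 1.35 in erythroid-like cells; without non-NK cells holding an NK UMI, 2 members were lower in T cell-like cells; without the shallowest NK-like cluster, the value of B2m CPM in NK-like cells was 1855.

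Leaving out 1 tag at a time gave 523 to 613 genes higher and 292 to 390 lower, with 0 to 2 members higher, in Cd27-only cells. The range was 400 to 502 genes higher, 433 to 500 lower and 0 to 0 members higher in ILC1-like cells, and 406 to 659 higher, 551 to 896 lower, 0 to 1 members higher and 0 to 1 lower in T cell-like cells. Members higher were 0 to 0 in B cell-like and progenitor-like cells, members lower 0 to 1 in dendritic-like cells, and 1584 to 1883 genes were lower in cluster 12. The values that changed sign belong to genes that were not called, given here on the log2 scale. By DESeq2 these were H2-Q7 in T cell-like cells at 0.0051, and B2m at 0.233 and H2-T23 at 0.262 in stromal-like cells. At resolution 2.0, H2-D1 was -0.0229 in ILC1-like and H2-T23 0.018 in stromal-like cells. At 2 gate UMIs, H2-T23 was -0.00128 in Cd27-only cells. With every barcode kept whatever its tags, Tap1 was -0.0459 in Cd27-only cells, H2-D1 -0.0698 and H2-Q7 -0.0103 in ILC1-like, H2-T23 -0.000336 in T cell-like, H2-D1 -0.0236 in dendritic-like and Tap2 -0.108 in stromal-like cells. Scaled by library size, H2-T23 was -0.0194 in Cd27-only, H2-D1 -0.225 in dendritic-like and Tap1 -0.336 in erythroid-like cells. Tap2 in stromal-like cells was -0.0114 without a filter and -0.0554 with only the classes compared, where Tap1 in erythroid-like cells was -0.158. H2-K1 in dendritic-like cells was 0.0342 without cells holding an NK UMI, and H2-D1 in ILC1-like cells -0.0246 without the shallowest NK-like cluster. Without 1 tag at a time, H2-T23 ran between -0.0329 and 0.0662 in Cd27-only cells, H2-D1 between -0.0658 and 0.00713 and H2-Q7 between -0.0144 and 0.0997 in ILC1-like cells, H2-K1 between -0.308 and 0.0384 and H2-D1 between -0.0632 and 0.194 in dendritic-like cells, Tap1 between -0.168 and 0.222 in erythroid-like cells, and H2-T23 between -0.294 and 0.0152 and Tap2 between -0.298 and 0.0199 in stromal-like cells. Where the setting itself shows no cause, the cause was not tested. The removal of cells with an NK UMI was not run for erythroid-like and stromal-like cells, which then had under 10 cells in a tag, nor for the dendritic clusters, which were also not rebuilt from other cell sets.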

Other observations

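The 756 cells of the shallowest NK-like cluster, with a median of 1421 UMIs against 4202 in the library and led by Gm42418, had other class I levels than the rest of the NK-like class. B2m had 627, 614 and 711 CPM in this cluster and Nlrc5 203, 240.2 and 185 CPM, against 1774, 1849.6 and 1821 CPM of B2m and 97.4, 122 and 94.3 CPM of Nlrc5 in all NK-like cells. Its ribosomal genes took 4.75% of UMIs, against 18.1% in NK-like cells, and its median mitochondrial share was 2.80%, against 1.35%. Its Gzma level was 1821 CPM, against 9079 CPM in all NK-like cells. H2-K1 plus H2-D1 UMIs for each B2m UMI were 3.09 ± 0.10 in it. Whether depth or RNA quality has a part in these values was not tested.

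The 84 cells led by Il7r and Il23r, which were given no name, had 2132, 2459 and 2522 CPM of B2m and 36.3, 98.0 and 37.8 CPM of Nlrc5. The 119 cells led by Cd3d, Dscam and Cd3g, also unnamed, had 2343, 2253 and 2505 CPM of B2m and 225, 253 and 185 CPM of Nlrc5. Plasma cell-like cells, 49 in all, had 2616, 3388 and 2895 CPM of B2m and 5.73, 17.3 and 19.5 CPM of Nlrc5. They numbered 14, 4 and 31 in tags 1, 2 and 3, so their Nlrc5 values rest on very few UMIs. Platelet- or megakaryocyte-like barcodes had a Gzma level of 51.6% of that of NK-like cells, so their class I values were not tested against NK-like cells. Their sums did enter the shared edgeR fit and the level patterns across the 12 named classes.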
